A study of Mus musculus with 4 samples.

Results

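The genes described here encode surface proteins by which B cells sense antigen, complement and antibody. They are Ms4a1, Cd79a, Cd79b, Cd37, Cd72, Fcgr2b, Cd38, Cr2 and Fcer2a, 9 of the 21887 protein-coding genes of the annotation on chromosomes 1 to 19, X and Y, and they were taken by name. The mark mapped was H3K27me3, trimethylation of lysine 27 of histone H3, in 2 libraries from Kdm6b B KO mice (KO) and 2 from wild type mice (WT), all C57BL/6, with 1 mouse behind each library by the series description. All mice had been given sheep red blood cells, were challenged again on day 5 and were killed on day 12, so no unimmunised cells were measured. The sorted cells were splenic germinal center B cells, called pre-plasma in the series title, and the sort markers, the Cre driver behind the knockout and the age of the mice were not given in the sources used here. CUT&Tag, in which an antibody directs a transposase to cut and tag DNA near the mark, was run on 1000 to 5000 cells per library, and a peak does not tell how many of those cells carried the mark.

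H3K27me3 is laid down by the Polycomb complex PRC2 and lies over genes held silent, while Kdm6b is an enzyme that takes it off. The B cell receptor signals through a pair of chains, Igα and Igβ, encoded by Cd79a and Cd79b. Coreceptors set the strength of that signal: CD21, encoded by Cr2, binds complement-coated antigen and raises it, while CD72 and the IgG receptor encoded by Fcgr2b lower it. Ms4a1 encodes CD20 and Cd37 a tetraspanin, both carried by mature B cells, and these stay on germinal center B cells. Fcer2a encodes CD23, the low-affinity IgE receptor, which with CD21 marks resting follicular B cells, and CD38 is an ectoenzyme whose surface level is low on mouse germinal center B cells. The members are described as 2 genes of naive cells, Fcer2a and Cr2, and 7 others. Cd38 is counted among the 7, though it also belongs to the list of naive and marginal zone genes used below.

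The 250 bases before the start of 4 members are shown because later results refer to them. Peaks lay over those of Cd79a in KO replicate 2 and over those of Cd37 in KO replicate 2 and WT replicate 1. No library had a peak over those of the naive-cell genes Cr2 and Fcer2a. The same held for Cd72, Fcgr2b and Cd38, which are not naive-cell genes as grouped here and are not shown. The sequences are from RefSeq on GRCm38.p6, on the strand of the gene, and capitals mark GGAAGT or its reverse complement, the core bound by ETS factors such as PU.1. The start used for a sequence need not be the end of the annotated gene. Cd37 and Cr2 are annotated up to 45239340 and 195176880. All of the Cd37 sequence and part of that of Cr2 therefore lie inside the annotated gene.
Cd79a, chr7:24897247-24897496, plus strand: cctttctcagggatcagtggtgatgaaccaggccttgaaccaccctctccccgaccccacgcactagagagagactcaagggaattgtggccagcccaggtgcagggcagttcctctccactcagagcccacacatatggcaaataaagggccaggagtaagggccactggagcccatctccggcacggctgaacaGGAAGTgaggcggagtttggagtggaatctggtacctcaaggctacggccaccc
Cd37, chr7:45238840-45239089, minus strand: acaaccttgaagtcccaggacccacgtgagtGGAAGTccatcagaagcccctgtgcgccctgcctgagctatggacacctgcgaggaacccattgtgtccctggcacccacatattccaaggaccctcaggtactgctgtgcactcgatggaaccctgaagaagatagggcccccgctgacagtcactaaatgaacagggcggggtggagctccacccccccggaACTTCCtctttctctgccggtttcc
Cr2, chr1:195176720-195176969, minus strand: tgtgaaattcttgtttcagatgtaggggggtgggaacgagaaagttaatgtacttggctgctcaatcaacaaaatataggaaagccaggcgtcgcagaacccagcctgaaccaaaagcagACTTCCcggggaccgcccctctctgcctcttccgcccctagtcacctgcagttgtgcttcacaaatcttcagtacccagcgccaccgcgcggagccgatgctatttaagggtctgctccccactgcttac
Fcer2a, chr8:3694175-3694424, minus strand: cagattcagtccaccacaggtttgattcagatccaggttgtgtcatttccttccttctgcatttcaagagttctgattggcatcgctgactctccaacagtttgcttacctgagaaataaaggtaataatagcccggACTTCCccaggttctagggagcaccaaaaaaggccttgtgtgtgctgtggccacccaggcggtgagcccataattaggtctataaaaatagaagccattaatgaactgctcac

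RefSeq gave such a sequence for 7 of the 9 members, all but Ms4a1 and Cd79b. GGAAGT was present on either strand in all 7, against 20.5% of the promoters of all 17492 genes with one, and it lay 54 bases before the start in Cd79a and 130 in Cr2, counted to its first base. The octamer ATGCAAAT was in 0 of 7, against 1.62% of all promoters, and TATAAA was in 1 of 7, that of Fcer2a, against 12.4%, with no overlap between these matches. The motifs were chosen after the sequences had been seen, and a match shows the letters alone. The members' promoters held 1 to 11 CG dinucleotides, with a median of 6 against 10 over all promoters. The lowest count was that of Cd38 and the highest that of Cr2.

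The libraries differed in how much of the genome their peaks covered, which bears on every count below. Covered length was 144 and 236 Mb in KO replicates 1 and 2, and 213 and 101.4 Mb in WT replicates 1 and 2, with 80639 to 90417 peaks per library. Read depth is unknown. Peaks covered 41.3% and 66.6% of the Kdm6b body in the KO libraries, against 49.6% and 36.7% in the WT libraries, and these peaks do not show whether the gene was deleted. A gene was called marked where peaks covered at least 25% of a 4 kb window centred on either of its ends. As a check of the map, 12 of 12 well-known Polycomb targets, most of them Hox genes, were marked in each library. The check is a weak one, since these genes were listed with earlier results of these data known.

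Peaks over the 9 genes were few, and most of them lay outside the genes themselves. Within the gene bodies and 10 kb to each side there were 5 and 13 peaks in KO replicates 1 and 2, against 11 and 5 in WT replicates 1 and 2. Of these 34 peaks, 11 touched the body of the member, 18 missed it but touched another protein-coding gene and 5 touched neither. The 11 peaks over a member's body comprised 1 and 8 in KO replicates 1 and 2, against 2 and 0 in WT replicates 1 and 2. Of 330188 bp in all, 299537 bp were under no peak in any library and 998 bp under a peak in all 4. Those 998 bp lay beside Fcer2a, partly over its neighbour Fcor, and outside every member.

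**Figure D1:**
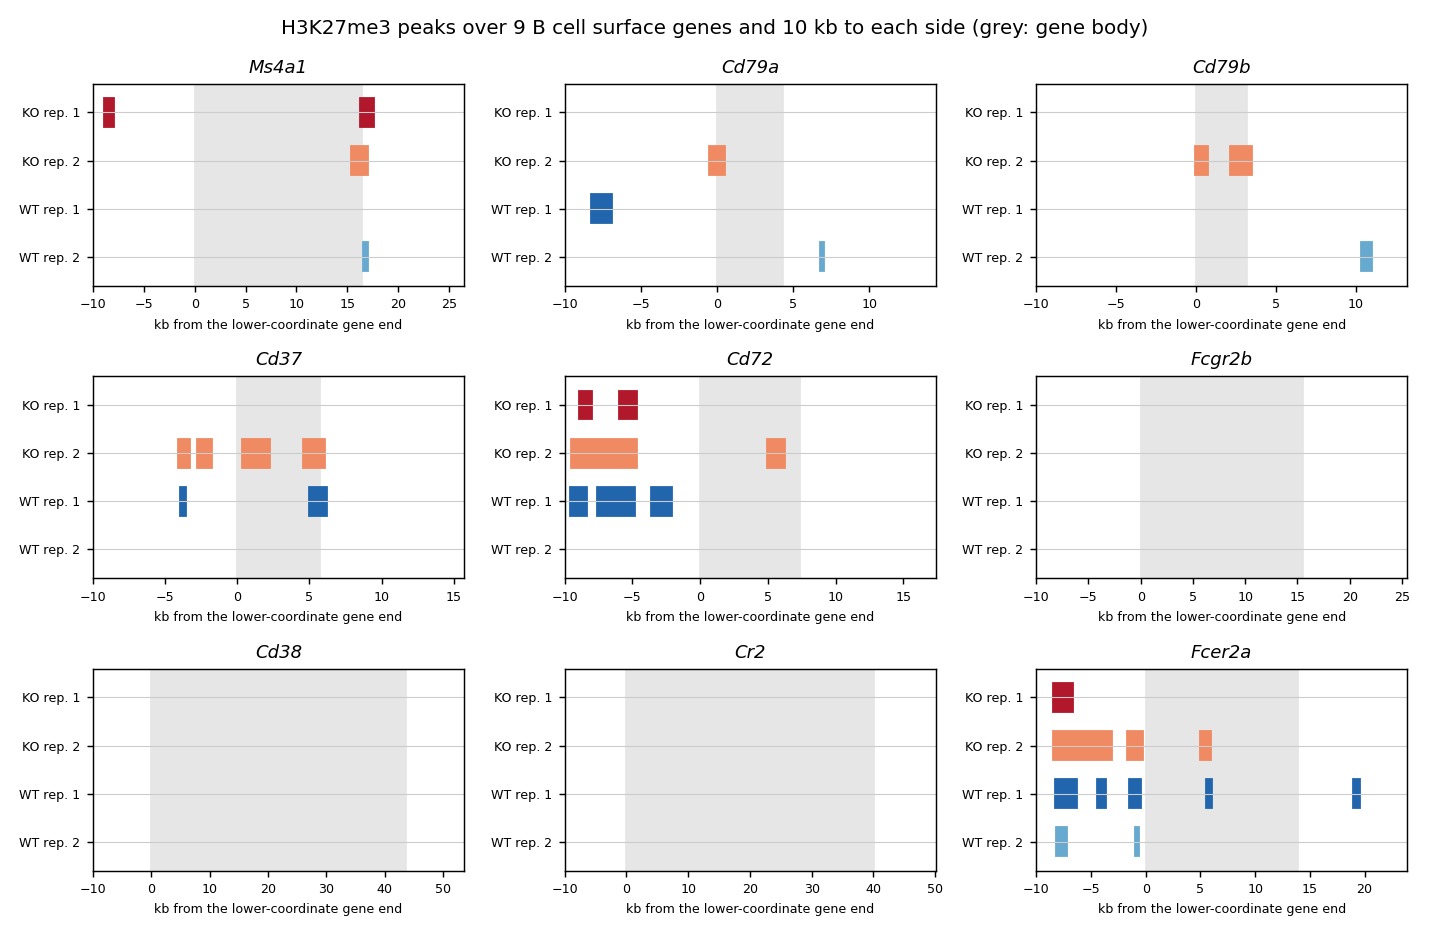
H3K27me3 peaks (coloured bars) over each of the 9 genes and 10 kb to each side, 1 row per library with the KO libraries above the WT libraries. The horizontal axis is the distance in kb from the gene's lower-coordinate end and grey marks the gene body. Fcgr2b, Cd38 and Cr2 have no peak in any library, and KO replicate 2 holds 8 of the 11 peaks that touch a member's body.

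Outside KO replicate 2 at most 2 of the 9 members were marked, and the count followed the covered length of the library. In KO replicate 1, Ms4a1 alone was marked (1 of 9), and in KO replicate 2 there were 5 of 9, namely Ms4a1, Cd79a, Cd79b, Cd37 and Fcer2a. In WT replicate 1, Cd37 and Fcer2a were marked (2 of 9), and in WT replicate 2 there were 0 of 9. Among all 21887 genes the shares were 33.9% and 46.7% in KO and 41.1% and 26.9% in WT, so the members' share lay above that of all genes in KO replicate 2, at 55.6%, and below it in the other libraries. At equal covered length, where each list was reduced to its peaks of highest signal until all spanned the same total, KO replicate 2 had 1 marked member. No member was marked in all 4 libraries, against 24.7% of all genes, and 4 members were marked in none, against 48.9%.

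The signal chains of the antigen receptor carried peaks in 1 library each at the gene. Cd79a (gene ID 12518, chr7:24897497-24901858, plus strand) had 25.2% of its start-site window covered in KO replicate 2, against 0% in KO replicate 1 and in both WT libraries. That peak, of 1007 bp at chr7:24897000-24898006, spanned all 250 bases shown above and the first 510 bp of the gene, and its highest signal, the authors' own value, exceeded or equalled that of 73.2% of the peaks in its own list. The WT libraries had their single peaks elsewhere in the flanks, over the ribosomal protein gene Rps19 in WT replicate 1 and over Arhgef1 in WT replicate 2.

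Cd79b (gene ID 15985, chr11:106311341-106314562) was covered over 58.9% of its 3222 bp body in KO replicate 2, by 2 peaks, and over 0% in the other libraries. Its lower-coordinate and higher-coordinate end windows, which overlap in so short a gene, were covered to 21.3% and 34.8% in KO replicate 2 and to 0% elsewhere. The 2 peaks were weak within their list, with a highest signal at or above that of 5.80% and 12.6% of its peaks. Scn4a, a sodium channel gene next to Cd79b, held the single peak of WT replicate 2. For both chains KO and WT overlapped, since KO replicate 1 was at 0% like the WT libraries.

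Ms4a1 (gene ID 12482, chr19:11249679-11266149) was the one member with higher values in both KO libraries than in both WT libraries. At its higher-coordinate end, peaks took up 33.5% and 41.9% of the 4 kb in KO, against 0% and 14.3% in WT, and the groups did not overlap. The difference was 30.5 percentage points (SE 7.89, KO 37.7% ± 5.90 and WT 7.16% ± 10.1, SD, n = 2 each), with an unadjusted limma p of 0.0318 and an adjusted p of 0.907, so it did not pass. Of the 8 member windows with coverage in any library, this 1 had both KO libraries above both WT libraries and 0 had the reverse, against 13.9% and 2.46% of the 20791 windows tested. An unadjusted p under 0.05 was reached by 3.9% of windows, and among the members by this one. The size depended on the window and the list, at 55.6 points with 1000 bp to each side, 12.2 points with 5000 bp and 9.59 points at equal covered length. At equal covered length the separation of the groups was lost too. KO replicate 2 there kept the 16716 peaks of highest signal out of 90417. Its only peak at this end, ranked at 4.50% of its list, was not among them. KO replicate 2 was then at 0%, below the 14.3% of WT replicate 2, whose list was not reduced.

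The peaks behind the Ms4a1 difference overlapped across genotypes. A stretch of 563 bp, chr19:11266180-11266742, just outside the annotated gene, was covered in both KO libraries and in WT replicate 2. A further 234 bp beside it, reaching into the gene, was covered in both KO libraries alone. Within their own lists the peaks ranked at 80.1% and 4.50% in KO replicates 1 and 2 and at 49.3% in WT replicate 2, as the share of peaks with no higher maximum. The long noncoding RNA gene 4930526L06Rik runs across the whole of Ms4a1 in the annotation, so these peaks lie within it too.

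Cd37 (gene ID 12493, chr7:45233632-45239340, minus strand) had its start site covered in 2 libraries, 1 of each genotype, against at most 1 for each of the other members whose start was annotated. The window at its start site, the higher-coordinate end, was 0% and 38.0% covered in KO, against 32.0% and 0% in WT, with a difference of 2.98 points (SE 20.9, limma adjusted p = 1). Peaks of KO replicate 2 and WT replicate 1 shared 1158 bp there, chr7:45238570-45239727, and each spanned all 250 bases of the promoter shown above. Those bases lie inside the annotated gene, on whose end the window is centred. At the other end KO replicate 2 alone was covered, to 47.2%. Those are the broadest lists, and the narrower ones, KO replicate 1 and WT replicate 2, had no peak within 10 kb of Cd37. The same pair also shared 458 bp over the neighbouring gene Tead2, which encodes a transcription factor of the Hippo pathway.

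Cd72 (gene ID 12517, chr4:43447724-43455102, minus strand) had its peaks mainly to one side of the gene, towards Tesk1, a kinase gene. The body and its flanks were 8.32% and 22.7% covered in KO, against 20.6% and 0% in WT, and 1804 bp of this, all outside Cd72, lay under peaks of both KO libraries and WT replicate 1. Over the gene itself there was a single peak, in KO replicate 2, and it stopped short of the promoter, so that the start-site window had 22.6% in that library and 0% in the others. The KO and WT values overlapped in both measures.

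Fcgr2b and Cd38 had no peak in any library. Fcgr2b (gene ID 14130, chr1:170960558-170976071, minus strand), the inhibitory IgG receptor gene, lay 38165 and 39943 bp from the nearest peak in KO and 36059 and 47659 bp in WT. Cd38 (gene ID 12494, chr5:43868809-43912374, plus strand) lay 35648 and 34673 bp from it in KO and 43845 and 49381 bp in WT. The stretches free of peaks in all libraries around them were 102663 bp for Fcgr2b and 122082 bp for Cd38, longer than those of 30.9% and 34.4% of all genes with no peak over their body.

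The genes of naive cells were not marked at their start sites either, and they differed from each other around the gene. Cr2 (gene ID 12902, chr1:195136811-195176880, minus strand) had no peak within 10 kb in any library. Its nearest peak lay 53305 and 49805 bp away in KO and 60567 and 64699 bp away in WT, and it sat in a peak-free stretch of 248812 bp, longer than that of 47.3% of genes with no peak over their body, whose median was 342418 bp. Having no peak in the body and its flanks is common, since 3 of the 9 members and 25.7% of all genes had none in any library. The members' median gene length was 13895 bp against 17169 bp over all genes.

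**Figure D2:**
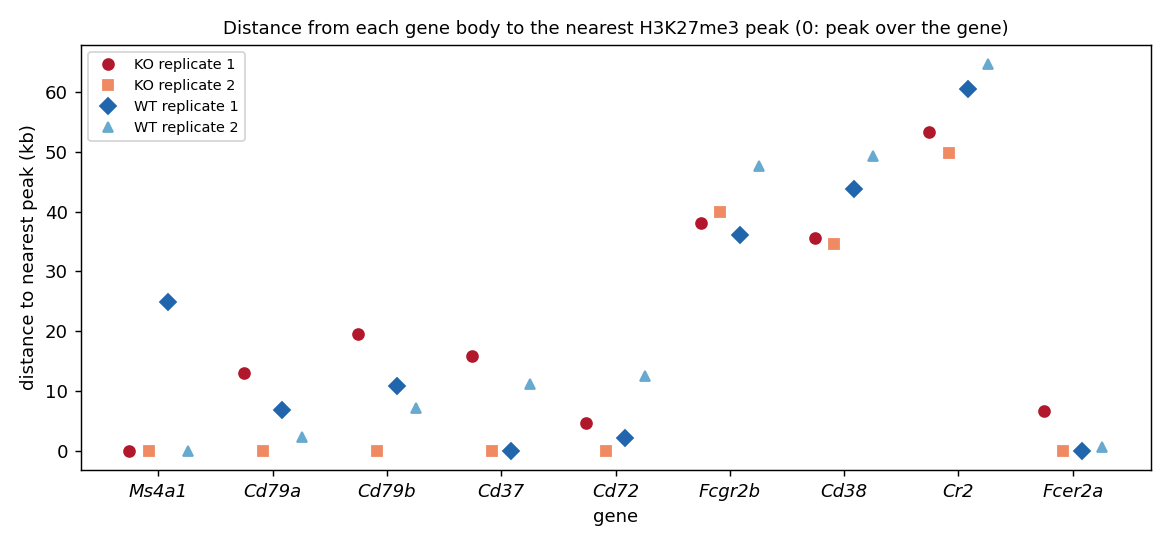
Distance in kb from each gene body to the nearest H3K27me3 peak in each library, with the KO libraries left of the WT libraries and 0 where a peak touches the gene. Fcgr2b, Cd38 and Cr2 lie at least 34673 bp from a peak in every library.

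Fcer2a (gene ID 14128, chr8:3680280-3694174, minus strand) had the most peaks of the 9 genes, and they gathered beyond its 3′ end. There were 1 and 3 peaks in KO against 5 and 2 in WT, and the body with its flanks was 5.47% and 23.1% covered in KO, against 15.3% and 4.04% in WT (difference 4.63 points, SE 8.73, limma adjusted p = 1.0). The start-site window had 0% in all 4 libraries. At the 3′ end, the lower coordinate, the values were 0% and 34.7% in KO and 28.1% and 9.33% in WT, so the groups overlapped. The difference there was -1.38 points (SE 16.7, KO 17.3% ± 24.5 and WT 18.7% ± 13.3, SD, n = 2 each, limma adjusted p = 1).

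Each of the peaks at that end lay over Trappc5, a gene for a vesicle tethering subunit that overlaps the end of Fcer2a, and 373 bp, chr8:3679282-3679654, were shared by KO replicate 2 and both WT libraries. Farther out, 998 bp at chr8:3672085-3673082, reaching over part of Fcor, were covered in all libraries. Inside Fcer2a itself KO replicate 2 and WT replicate 1 shared 442 bp, chr8:3685796-3686237, and the other libraries had no peak in the body.

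**Figure D3:**
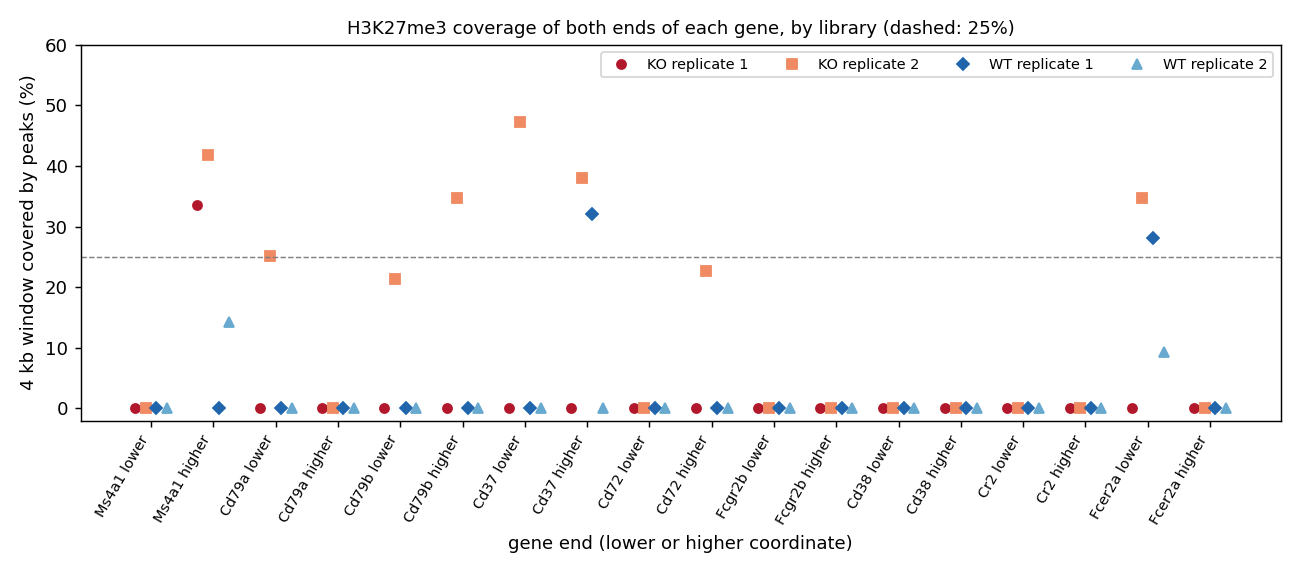
Share of the 4 kb window at each end of each gene that was covered by peaks, in percent, with 1 point per library and the KO libraries left of the WT libraries. The dashed line is the 25% used to call a gene marked. Ms4a1 higher is the one window where both KO points (33.5% and 41.9%) stand above both WT points (0% and 14.3%).

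No member passed the test of genotype, and neither did any other gene. Of the members' 18 end windows 8 had coverage in some library and entered the fit of 20791 windows, of which limma called 0% higher and 0% lower in KO at an adjusted p of 0.05, while 810 windows, 701 of them higher in KO, had an unadjusted p under 0.05. Over bodies with 10 kb flanks, 6 of 9 members entered the fit of 16263 genes, again with 0% called in either direction. An unadjusted p under 0.05 was reached there by 84 genes (0.517%), 83 of them higher in KO, and by 0 of the 6 members. The body differences of those 6 members ran from -1.36 points for Cd79a to 7.01 points for Cd37, and the median over the 16263 genes tested was 2.17 points. Both KO libraries lay above both WT libraries for 1 of the 6, Ms4a1, against 12.1% of the genes tested. They lay below for 0, against 2.08%. At the 8 covered windows the SEs were 7.89 to 20.9 points, and a p that misses the threshold does not show KO and WT to be alike. The limma tests measure the spread between 2 libraries per genotype, each from 1 mouse, so mouse and library differences are not separated. That spread is drawn by eBayes towards a value shared by all windows.

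The start sites of the members can be summed up by library. Of the 7 members with a promoter sequence, a peak touched those 250 bases in 0 and 2 in KO, against 1 and 0 in WT, and the 2 in KO replicate 2 were Cd79a and Cd37. Among all 17492 promoters of 250 bases a peak touched 31.5% and 43.4% in KO and 38.3% and 24.1% in WT. Among the 9602 with no more CG dinucleotides than the richest member, Cr2, these shares were 23.8% and 33.7% in KO and 30.8% and 19.3% in WT.

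Genes that work with the members were, like all genes, marked most often in KO replicate 2 and least often in WT replicate 2. For all genes the shares were 33.9% and 46.7% in KO and 41.1% and 26.9% in WT. Of 30 genes that carry the signal of the antigen receptor inside the cell, 3 and 14 were marked in KO and 8 and 0 in WT. These are 10.0% and 46.7% in KO and 26.7% and 0% in WT. In this list 3 genes were marked in both KO libraries and neither WT library, against 1.20% of all genes, and 0 had the reverse pattern, against 0.178%. They were Pik3r1, a regulatory subunit of PI3 kinase, Prkcb, the protein kinase that links the receptor to NF-κB, and Bcl10, which acts in the same branch. At its higher-coordinate end Pik3r1 had 41.8% and 28.9% in KO, against 1.75% and 2.05% in WT, with a difference of 33.5 points (SE 6.60). At its lower-coordinate end Prkcb had 26.6% and 37.5% in KO, against 12.6% and 0% in WT. Bcl10, at the same end, had 28.9% and 46.55% in KO, against 19.4% and 14.85% in WT, so its pattern depends on the marking threshold. Prkcb and Bcl10 had differences of 25.8 points (SE 7.91) and 20.6 points (SE 8.48), and for all 3 the limma adjusted p was 0.907. Whether the 3 keep the pattern at another threshold or at equal covered length was not tested. The list was chosen with earlier results of these data known.

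The list of naive-cell genes to which Fcer2a, Cr2 and Cd38 belong was divided. Of 15 genes of naive and marginal zone B cells, 9 and 11 were marked in KO and 10 and 8 in WT. In all libraries 8 were marked (53.3%), against 24.7% of all genes. Examples chosen after their values were seen are as follows. Ccr7, a homing receptor gene, had 92.2% and 100% in KO and 100% and 82.4% in WT at its higher-coordinate end. Gpr183, a gene for an oxysterol receptor that guides B cell migration, had no coverage at either end in any library, as for Cr2 and Cd38, and Cxcr5, the gene of a follicle homing receptor, had at most 7.15%. Cd55, a complement regulator gene, had 3.48% and 49.0% in KO and 44.7% and 2.48% in WT at its higher-coordinate end, and like Fcer2a it was marked in KO replicate 2 and WT replicate 1. Tnfrsf13c, the BAFF receptor gene, was marked in both KO libraries and neither WT library, with 27.9% and 30.1% in KO and 0% and 0% in WT at its higher-coordinate end (difference 29.0 points, SE 4.04, limma adjusted p = 0.907).

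The genes listed for germinal center B cells, Pax5 and Ebf1 included, were sparsely marked. There were 1 and 1 of 16 in KO (6.25% each) and 2 and 0 in WT (12.5% and 0%). The shares of all genes were 33.9% and 46.7% in KO and 41.1% and 26.9% in WT. Among genes of other cells, T cell genes were marked at 8 of 14 (57.1%) in each library. Myeloid genes were marked at 9 and 11 of 14 in KO (64.3% and 78.6%) and 12 and 8 in WT (85.7% and 57.1%). The medians of the covered share of body and flanks were 0% and 4.59% in KO and 0% and 0% in WT for the members, against 2.83% and 6.47% in KO and 5.00% and 1.88% in WT for all genes. Over these 101 listed genes, those nearest to a member in this measure over the 4 libraries were Irf8 and Pik3cd for Cd79b, with mean absolute differences of 0.787 and 1.22 points. For Cd79a, Malt1 was among the nearest, at 1.33 points. For Fcer2a they were Ptpn6 and Vav1, at 2.83 and 3.17 points, for Ms4a1 Cd28 and Cd68, for Cd37 Ptpn6 and Mef2b, and for Cd72 Fcer2a and Spib.

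**Figure D4:**
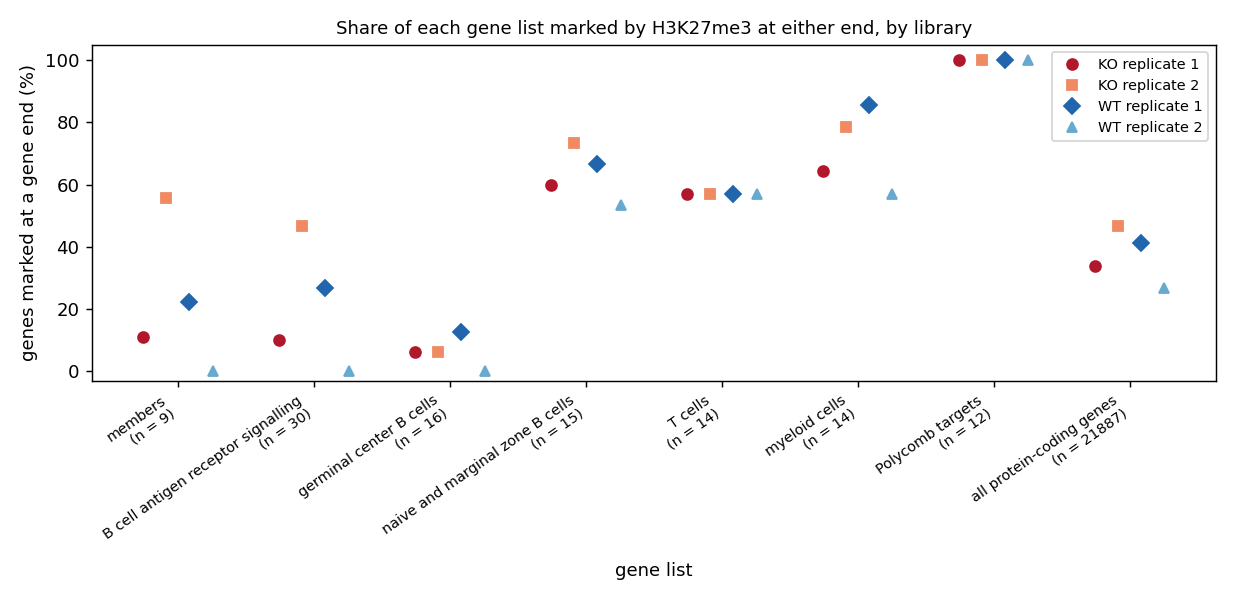
Share of each gene list marked at either end, in percent, with 1 point per library, the KO libraries left of the WT libraries, and the number of genes under each name. The 9 members lie between 0% and 55.6%, the germinal center list at or below 12.5%, and the Polycomb targets at 100% in each library.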

How the data were processed

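H3K27me3 was mapped by CUT&Tag in 4 libraries, 2 KO and 2 WT. The authors deposited 1 peak list per library, called separately, giving position, total signal and highest signal, and the scale of this signal (coverage) is unknown. Per the submitters' processing notes, SEACR, deepTools, SAMtools 1.11, Bowtie2 2.4.2 and Trim Galore 0.6.6 were used, with the mm10 build. Their settings and roles were not given in the sources used here. Read depth is unknown. Each library came from 1 mouse, so differences between libraries cannot be told apart from those between mice. Replicate numbers only name the libraries.

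Signal served to rank peaks within a list. Compared between genotypes was the percent of a window under peaks, for 4000 bp centred on each end of every gene and for gene bodies with 10000 bp flanks, in RefSeq coordinates on GRCm38.p6, which is the mm10 assembly. Windows without coverage in any library were left out. limma 3.58.1 (lmFit, eBayes) in R 4.3.3 was fitted over all windows with Benjamini-Hochberg adjustment at 0.05, and tested on simulated data. The simulation had less spread than the members' covered windows and shifts larger than any member's difference. It therefore does not show how well the fit detects changes in these data. Python 3.11.15, numpy 2.4.6 and matplotlib 3.10.9 were used. Strand was taken from the RefSeq promoter table, and where that table had no entry, ends are named by coordinate. Start-site windows were centred on the annotated gene end, and for Cd37, Cd72 and Cr2 the promoter start lies inside the gene. All 9 members and 101 genes of 6 lists were found. Named were all members, list genes marked in both KO and no WT library or the reverse, neighbours with a peak and, per covered member, the 2 nearest list genes, except a few results that are not reported here. The members and lists were chosen with earlier results of these data known. Alternatives covered window and flank size, marking threshold, stricter and equal-length lists, a covariate and each library left out. Coding and untranslated parts of genes were not used here.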

Additional observations from a re-analysis of the deposited data

How the results depend on the processing

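No paired analysis was possible because the replicate numbers used here were given in accession order and not by the labels, and each library came from a different mouse. At gene ends, keeping windows with no coverage in any library gave 22 windows higher and 5 lower in KO, none of them a member's. Most windows were then at 0 in every library, which makes the pooled spread unreliable. Without flanks, 2 gene bodies were higher in KO, neither a member. The other alternatives, leaving out each library included, gave 0 calls in both measures.

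The number of marked members changed with the peak list and the threshold. At 50% in place of 25% there were 0 and 0 in KO and 0 in WT replicate 1, and at 10% there was 1 in WT replicate 2. With equal covered length there were 1 in KO replicate 2 and 0 in WT replicate 1, and with the stronger 50% of each list 2 in KO replicate 2 and 0 in WT replicate 1. Requiring that at least 50% of a peak lie inside changed no peak count, at 5 and 13 in KO and 11 and 5 in WT.

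Of 124 recomputed member differences 104 kept their direction and 20 turned, all of them uncalled. Some of the 104 could not have turned, so the tally does not measure how firm the directions are. Keeping windows with no coverage cannot change a difference. At end windows covered in KO replicate 2 alone, stricter lists or leaving out another library cannot reverse it. Over bodies with flanks, Cd79a (-1.36 points) turned to 1.49 with the stronger 50% of each list, 5.85 without flanks and 4.66 with flanks of 50 kb. Equal covered length gave -1.51 for Cd79b and -2.24 for Fcer2a, and the covariate -0.500 for Cd72. With 1 library left out, the ranges were -3.63 to 0.913 for Cd79a, -1.51 to 8.14 for Cd79b, -3.38 to 17.4 for Cd37, -5.10 to 15.5 for Cd72 and -4.19 to 13.4 for Fcer2a. At gene ends, Cd37 at its start site gave -8.15 with the covariate and -16.0 to 22.0 with 1 library left out. Fcer2a at its 3′ end gave 5.47 with 5000 bp to each side and -18.7 to 16.0 with 1 library left out. Where KO replicate 2 alone had a peak, leaving it out left no value. The cause of these turns was not tested. The lone library of a genotype is then assumed to vary like the others.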

Other observations

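Among genes that carry or restrain the antigen receptor signal, a few with high coverage in some libraries are given here, chosen after their values were seen and each read at its higher-coordinate end. Cd5, which damps the receptor signal, had 14.4% and 73.0% in KO, against 37.2% and 0% in WT. Nfatc1, a calcium-dependent transcription factor gene, had 20.2% and 65.0% in KO and 79.2% and 9.15% in WT. For both genes KO and WT overlapped at this end. Ptpn6, the gene of the phosphatase SHP-1, had 6.25% and 60.5% in KO and 0% and 0% in WT at this end, while at its other end WT replicate 1 alone was covered, to 32.2%. The kinase gene Btk and the adaptor gene Bank1 had no coverage at either end in any library.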
